A study of Homo sapiens with 6 samples.

Results

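The MAPK pathway output and feedback genes are 10 genes that are transcribed in response to the kinase ERK: DUSP4, DUSP5, DUSP6, SPRY2, SPRY4, SPRED1, SPRED2, ETV4, ETV5 and EGR1. They were taken by name from the gene tables, where all 10 were found among 47432 genes. The cells were LOX-IMVI, an established human melanoma line, transduced with a lentiviral pLKO.1 construct and selected with puromycin in both groups. The shCtrl cells carried the control construct and the shNFKBIZ cells a short hairpin RNA (shRNA) against NFKBIZ, which encodes the nuclear co-regulator IκBζ. Each group had 3 RNA-seq libraries, which the study describes as independent experiments. A single hairpin was used against NFKBIZ, so that effects of the loss of NFKBIZ and effects of the hairpin on other transcripts cannot be told apart.

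In the MAPK cascade, growth factor receptors load RAS proteins with GTP, RAS recruits RAF kinases, RAF activates the kinases MEK1 and MEK2, and these activate ERK. ERK then induces transcription factors such as EGR1, ETV4 and ETV5, together with proteins that switch the cascade off again. The DUSP phosphatases remove the activating phosphates from ERK, while Sprouty (SPRY) and SPRED proteins act further upstream, at the level of RAS and RAF. The cascade is frequently activated by mutation in melanoma, and the levels of these transcripts are widely read as a measure of ERK activity.

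Libraries held 22264473 to 24624839 exon reads, and no library stood apart from its group, with correlations of log2 CPM of 0.992 to 0.993 within and 0.967 to 0.970 between groups. NFKBIZ itself fell from 44.5 ± 4.12 to 13.7 ± 0.362 TPM (SD, n = 3; TPM is the read count per exon length, scaled to the same sum in every library), a log2 fold change of -1.78 (SE 0.0581). Of 8 melanocyte markers, 7 had a mean under 1 TPM in each group. MITF was the highest of them, at 3.21 TPM in shCtrl and 2.00 TPM in shNFKBIZ cells, while MLANA, SOX10 and S100B had no exon read at all. The summed level of the 8 markers was 3.19 to 4.23 TPM in shCtrl and 1.79 to 2.62 TPM in shNFKBIZ libraries. Of 11 markers of keratinocytes, leukocytes, endothelium and fibroblasts, 10 had a mean under 1 TPM in shCtrl and 9 in shNFKBIZ cells. KRT10 was the highest, at 66.2 and 74.3 TPM, and made up most of their summed level. That sum was 60.5 to 72.4 TPM in shCtrl and 73.4 to 81.0 TPM in shNFKBIZ libraries. The other keratinocyte markers were at 0 TPM in both groups (KRT1), 0.013 and 0 TPM (KRT5) and 0.570 and 1.59 TPM (KRT14). Whether these marker levels have a part in the results below was not tested, and in bulk RNA a smaller number of cells of a type cannot be told apart from less RNA per cell.

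The promoters of EGR1 and SPRY4 are shown first, since EGR1 is the member whose control by ERK is best known and SPRY4 the member that changed most. The sequences are the 250 bases before the RefSeq start on GRCh38.p14, written 5′ to 3′ in the direction of the gene, with matches to any of the searched motifs in capitals. The EGR1 sequence lies at chr5:138465229-138465478 on the plus strand, and the SPRY4 sequence at chr5:142324248-142324497 on the minus strand.
EGR1: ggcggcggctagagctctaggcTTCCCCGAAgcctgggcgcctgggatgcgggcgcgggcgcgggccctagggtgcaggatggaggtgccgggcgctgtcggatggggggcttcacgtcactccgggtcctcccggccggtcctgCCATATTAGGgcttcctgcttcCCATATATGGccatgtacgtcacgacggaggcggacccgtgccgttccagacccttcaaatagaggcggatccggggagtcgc
SPRY4: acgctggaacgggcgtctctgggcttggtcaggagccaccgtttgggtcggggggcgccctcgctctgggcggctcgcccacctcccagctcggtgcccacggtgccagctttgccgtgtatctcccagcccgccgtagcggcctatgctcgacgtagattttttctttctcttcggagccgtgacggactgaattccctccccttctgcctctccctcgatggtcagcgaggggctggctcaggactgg

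The motifs searched on both strands were the CArG box (the site of serum response factor, SRF, found in 1.16% of 35116 promoter windows of this length), the cyclic AMP response element TGACGTCA (1.65%), the AP-1 site TGANTCA (6.57%), the ETS site CCGGAAGT (3.42%), the NF-κB site (8.04%) and the STAT site TTCNNNGAA (6.57%). The EGR1 window held 2 CArG boxes, 105 to 96 and 83 to 74 bases before the start, and 1 STAT match 228 to 220 bases before it. The SPRY4 window held none of the 6 motifs. This window starts from a RefSeq transcript that begins inside the gene as the tables give it, which extends to base 142326455. RefSeq promoters were found for 6 of the 10 genes, with 9 windows in all, and those of DUSP6, SPRY2, SPRED1 and SPRED2 held none of the 6 motifs either. Some of these windows also lay inside their gene, at 80339660 to 80339909 and 80340109 to 80340358 for SPRY2 and 65366779 to 65367028 for SPRED2. Such a match or its absence describes these letters in this window only.

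Knockdown of NFKBIZ was compared with the control to ask whether the transcripts downstream of ERK moved together in these cells. They did not. Exon reads of SPRY4 rose 2.38-fold, those of DUSP5 and EGR1 rose by less than 2-fold, those of ETV4, ETV5, SPRED2 and SPRED1 fell by less than 2-fold, and DUSP6 and SPRY2 did not pass the test. DUSP4 was almost without reads in both groups. Of the 9 genes that could be tested, 1 had both an adjusted P of at most 0.05 and a change of at least 2-fold, and across all genes tested the share was 8.96%. An adjusted P of at most 0.05 alone was reached by 7 of the 9, 3 of them higher and 4 lower, where 65.3% of all genes tested did so, 32.5% higher and 32.8% lower. CPM of the groups did not overlap for 7 of the 9, against 68.7% of all genes tested. Their median log2 fold change was 0.08, beside 0.00 for all genes tested, and the median size of their change was 0.36 against 0.30. These shares of the members were near those of all genes tested, and the called members had no direction in common. Tests were those of edgeR across 13843 genes.

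**Figure D1:**
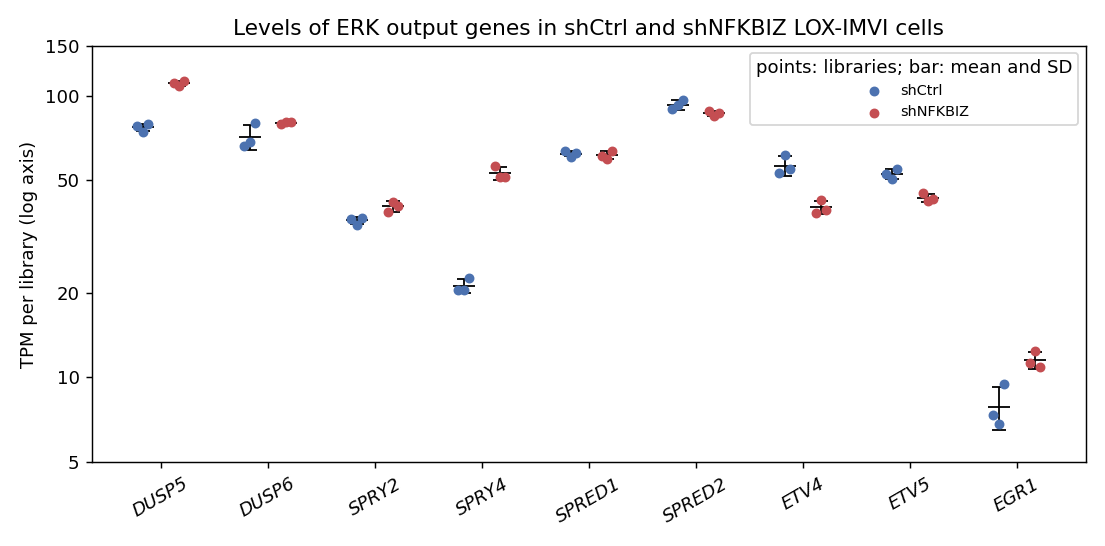
TPM of 9 output and feedback genes on a log axis, with each of the 3 shCtrl and 3 shNFKBIZ libraries as a point and the mean and SD as bars. SPRY4 went from 21.1 to 53.1 TPM with no overlap, while DUSP6 and SPRED1 had overlapping libraries. DUSP4, at or near 0, is left out.

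Of the phosphatases, DUSP4 and DUSP5 encode nuclear enzymes and DUSP6 a cytoplasmic one, the latter highly selective for ERK. DUSP4 (ENSG00000120875, chromosome 8, 29333064 to 29350684, minus strand, hg38) had 0 exon reads in each shCtrl library and 2 in each shNFKBIZ library. All these values are at or under the floor of 3 reads per library, about 0.07 TPM, so no fold change is given.

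DUSP5 (ENSG00000138166, chromosome 10, 110497907 to 110511533, plus strand) had 77.7, 74.5 and 79.2 TPM in shCtrl and 110.6, 107.9 and 112.9 TPM in shNFKBIZ libraries. Every shNFKBIZ library was above every shCtrl library. On the log2 scale the rise was 0.44 (SE 0.0450) or 1.35-fold, with an adjusted P of 2.06e-08 in edgeR, and it was called in all 15 alternatives, from 0.36 to 0.53.

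DUSP6 (ENSG00000139318, chromosome 12, 89347235 to 89352501, minus strand) had 66.2, 68.7 and 79.8 TPM in shCtrl and 79.0, 80.9 and 80.3 TPM in shNFKBIZ libraries. The third shCtrl library lay within the range of the shNFKBIZ libraries, so that the groups overlapped. edgeR gave a log2 fold change of 0.08 (SE 0.0498) and an adjusted P of 0.151. It was called without shCtrl replicate 3 (0.15, adjusted P 0.00742, edgeR) and with library size alone as scaling (0.17, adjusted P 0.00814, edgeR), and the adjusted P ranged from 0.00742 to 0.615 over 15 alternatives.

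Sprouty proteins are induced by receptor signalling and dampen it by interfering with the activation of RAS and RAF. SPRY4 (ENSG00000187678, chromosome 5, 142310427 to 142326455, minus strand) was covered by 831, 861 and 850 exon reads in the control and by 2165, 1941 and 1999 in the knockdown libraries. Per length these were 20.4, 20.4 and 22.5 TPM against 56.4, 51.5 and 51.3 TPM. The lowest shNFKBIZ library was thus more than 2-fold above the highest shCtrl library. The rise was 1.25 on the log2 scale (SE 0.0514), with an adjusted P of 4.06e-15 in edgeR, and only 5.43% of the genes tested had a larger change in either direction. It was past the threshold in all 15 alternatives, with values from 1.20 to 1.76. The upper value came from reads across exon junctions, of which SPRY4 had 5, 6 and 5 in shCtrl and 16, 21 and 17 in shNFKBIZ libraries.

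SPRY4 overlaps SPRY4-AS1, a long non-coding RNA on the opposite strand, and the counting did not use strand. SPRY4-AS1 was covered by 18, 12 and 7 exon reads in the control and by 29, 34 and 30 in the knockdown libraries, which is a change of 1.31 on the log2 scale (SE 0.296) with an adjusted P of 0.000543 in edgeR. Its exon reads were far fewer than those of SPRY4, but reads in the shared stretch cannot be told apart between the genes.

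SPRY2 (ENSG00000136158, chromosome 13, 80335976 to 80341126, minus strand) had 36.6, 34.7 and 36.9 TPM in shCtrl and 38.7, 42.1 and 40.5 TPM in shNFKBIZ libraries. The groups did not overlap in TPM, and they did overlap in CPM with TMM factors. Here edgeR gave a log2 fold change of 0.08 (SE 0.0532) with an adjusted P of 0.179 (range 0.00841 to 0.724 over 15 alternatives), and it was called only with library size alone (0.17, adjusted P 0.00841, edgeR).

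SPRED proteins bind neurofibromin, the RAS GTPase-activating protein, and bring it to the membrane. SPRED1 (ENSG00000166068, chromosome 15, 38252836 to 38357249, plus strand) had 63.4, 60.8 and 62.6 TPM in shCtrl and 61.1, 59.6 and 63.8 TPM in shNFKBIZ libraries, so that the groups overlapped in TPM. Its log2 fold change of -0.10 (SE 0.0405), with an adjusted P in edgeR of 0.0366 (range 0.0121 to 0.836 over 15 alternatives), was the smallest of those called. The call was lost without shCtrl replicate 1 (-0.08), without shNFKBIZ replicate 1 (-0.10) and without shNFKBIZ replicate 2 (-0.06). It was also lost with library size alone (-0.01), total gene reads (-0.09) and DESeq2 (-0.10), and with exon junction reads the value was 0.05.

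SPRED2 (ENSG00000198369, chromosome 2, 65310851 to 65432637, minus strand) had 89.5, 92.4 and 96.8 TPM in shCtrl and 87.8, 84.7 and 86.8 TPM in shNFKBIZ libraries. It was the highest member in shCtrl cells, and all its shNFKBIZ libraries were below the lowest shCtrl library. The difference was -0.19 on the log2 scale (SE 0.0384), with an adjusted P of 0.000238 in edgeR. With junction reads alone it was -0.08 and not called.

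ETV4 and ETV5 encode ETS transcription factors of the PEA3 group and EGR1 a zinc finger transcription factor of the immediate early response. ETV4 (ENSG00000175832, chromosome 17, 43527844 to 43579620, minus strand) had 52.9, 61.4 and 54.7 TPM in shCtrl and 38.4, 42.5 and 39.4 TPM in shNFKBIZ libraries. The groups did not overlap. ETV4 was 1.49-fold lower, -0.57 on the log2 scale (SE 0.0592), with an adjusted P of 3.75e-08 in edgeR, and it was called in all 15 alternatives, from -0.70 to -0.48. ETV4 lies within DHX8 on the opposite strand, which had 1635 to 2120 exon reads per library and a log2 fold change of -0.29 (SE 0.0420). In reads across exon junctions, ETV4 had 417, 469 and 384 in shCtrl against 246, 257 and 260 in shNFKBIZ libraries.

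ETV5 (ENSG00000244405, chromosome 3, 186046314 to 186110318, minus strand) had 52.6, 50.8 and 54.9 TPM in shCtrl and 45.1, 42.2 and 42.9 TPM in shNFKBIZ libraries, again with no overlap. On the log2 scale the difference was -0.36 (SE 0.0444), with an adjusted P of 2.79e-07 in edgeR, and it was called in all 15 alternatives, from -0.41 to -0.27. ETV5 overlaps DGKG, which had 15 to 41 exon reads per library. Of the exon reads of ETV5, 97.0% were uniquely placed, and for the other members with reads the share was 100%.

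EGR1 (ENSG00000120738, chromosome 5, 138465479 to 138469303, plus strand), whose upstream sequence with 2 CArG boxes is given above, was covered by 143, 138 and 171 exon reads in the control and by 207, 224 and 203 in the knockdown libraries. Per length this was 7.33, 6.85 and 9.45 TPM against 11.3, 12.4 and 10.9 TPM. The groups did not overlap, although the shCtrl libraries were more scattered here than for any other member, with an SD of 17.6% of the mean. EGR1 rose 1.39-fold, 0.47 on the log2 scale (SE 0.109), with an adjusted P of 0.00069 in edgeR, and was called in all 14 alternatives that could test it, from 0.39 to 0.60.

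In shCtrl cells the order of the mean levels per length was SPRED2 (92.9 TPM), DUSP5, DUSP6, SPRED1, ETV4, ETV5, SPRY2, SPRY4, EGR1 and DUSP4. The libraries of DUSP5 and DUSP6, of SPRED1 and ETV4, and of ETV4 and ETV5 overlapped, while the other neighbours did not. In shNFKBIZ cells DUSP5 stood first (110.5 TPM), SPRY4 moved from place 8 to place 5 and ETV4 from place 5 to place 8, and only SPRY2 and ETV4 overlapped as neighbours.

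Ratios between relatives were formed within each library, since they do not depend on the scaling between libraries. The pairs were chosen after the values were seen. SPRY4 was at 0.557, 0.589 and 0.610 of the TPM of SPRY2 in shCtrl and at 1.46, 1.22 and 1.27 in shNFKBIZ libraries. It was thus below SPRY2 in every shCtrl library and above SPRY2 in every shNFKBIZ library. The ratio of DUSP5 to DUSP6 was 1.18, 1.09 and 0.993 in shCtrl and 1.40, 1.33 and 1.41 in shNFKBIZ libraries, without overlap. The ratios of SPRED1 to SPRED2 (0.671 ± 0.0334 and 0.711 ± 0.0210, SD, n = 3) and of ETV4 to ETV5 (1.07 ± 0.121 and 0.926 ± 0.0782) overlapped between the groups. In exact two-sided permutation tests, P was 0.1 for each of the Sprouty and DUSP ratios and 0.3 for each of the SPRED and ETV ratios (adjusted P 0.2 and 0.3 over the 4 ratios), and 0.1 is the smallest value that 3 against 3 libraries can give.

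**Figure D2:**
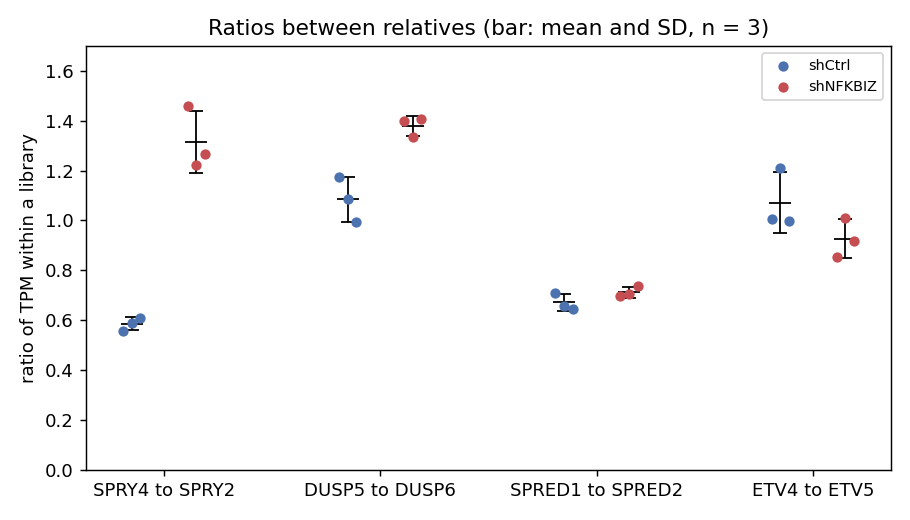
Ratio of TPM between relatives within each library, with the 3 shCtrl and 3 shNFKBIZ libraries as points and mean and SD as bars. SPRY4 to SPRY2 and DUSP5 to DUSP6 were higher in every shNFKBIZ library, and the other ratios overlapped.

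Intron reads come largely from RNA that is not yet spliced and were tested in the same way, across 12119 genes. SPRY4 again stood out, with 151, 148 and 154 intron reads in shCtrl and 322, 332 and 312 in shNFKBIZ libraries. On the log2 scale intron reads rose by 1.001 (SE 0.0874), with an adjusted P of 6.45e-12 in edgeR and values from 0.96 to 1.06 over 11 alternatives. The value lies on the 2-fold limit, which 5 of the 11 alternatives placed it below, among them the fits without shCtrl replicate 2 or shNFKBIZ replicate 1. Intron reads of SPRY4-AS1 numbered 124 to 152 in shCtrl and 290 to 325 in shNFKBIZ libraries, with a log2 fold change of 1.10 (SE 0.0941), and reads of the shared stretch cannot be told apart here either.

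Of the 8 members with enough intron reads, 1 was past the threshold, against 6.6% of all genes tested on intron reads, and 4 had an adjusted P of at most 0.05, against 38.8%. Besides SPRY4 these were DUSP5, SPRED2 and ETV4, all lower. SPRED2 intron reads changed by -0.30 on the log2 scale (SE 0.0801), with an adjusted P of 0.00318 in edgeR. ETV4 had -0.29 (SE 0.118, adjusted P 0.0484, edgeR, range 0.0278 to 0.195 over 11 alternatives), and this call was lost without shCtrl replicate 1 (-0.23), shCtrl replicate 2 (-0.29), shNFKBIZ replicate 1 (-0.29) or shNFKBIZ replicate 2 (-0.22), with library size alone (-0.23) and with a replicate block (-0.29, adjusted P 0.0565, edgeR). ETV5 had a similar value of -0.29 (SE 0.126, adjusted P 0.0607, edgeR, range 0.0107 to 0.339 over 11 alternatives), and was called without shNFKBIZ replicate 3 (-0.45) and with a replicate block (-0.30, adjusted P 0.0439, edgeR). SPRY2, SPRED1 and DUSP6 were not called in intron reads, with log2 fold changes of 0.26, 0.09 and -0.01. EGR1 had 0 intron reads in each shCtrl and 1 in each shNFKBIZ library and DUSP4 at most 1 in any library, all under the floor of 3 reads.

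DUSP5 went in opposite directions in the read types. Its intron reads were 123, 116 and 118 in shCtrl and 77, 105 and 69 in shNFKBIZ libraries, with no overlap, and they changed by -0.60 on the log2 scale (SE 0.132, adjusted P of 0.000391 in edgeR), against 0.44 in exon reads. Introns made up 8.72% to 9.25% of the DUSP5 reads in shCtrl and 3.89% to 6.26% in shNFKBIZ libraries. The exon change exceeded the intron change by 1.05 (SE 0.133, adjusted P 2.04e-10, edgeR, interaction in a model with library blocks), and it was called in all 10 alternatives, from 0.91 to 1.25. DUSP5 overlaps no other gene in the tables. Only 2.4% of the genes tested had a larger difference of this kind.

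Among the members, the exon and intron changes differed for 2 of 8, against 28.9% of the 11025 genes tested in this way. The other was SPRY4, whose exon reads rose by 0.26 more than its intron reads (SE 0.0991, adjusted P 0.0379, edgeR, range 0.0227 to 0.126 over 10 alternatives). That call was lost without shCtrl replicate 1 (0.24), 2 (0.29) or 3 (0.26) and without shNFKBIZ replicate 1 (0.23) or 3 (0.26). For ETV4 the difference was -0.27 (SE 0.125, adjusted P 0.096, edgeR, range 0.0397 to 0.362 over 10 alternatives), and it was called without shCtrl replicate 1 (-0.37) or shNFKBIZ replicate 2 (-0.37).

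**Figure D3:**
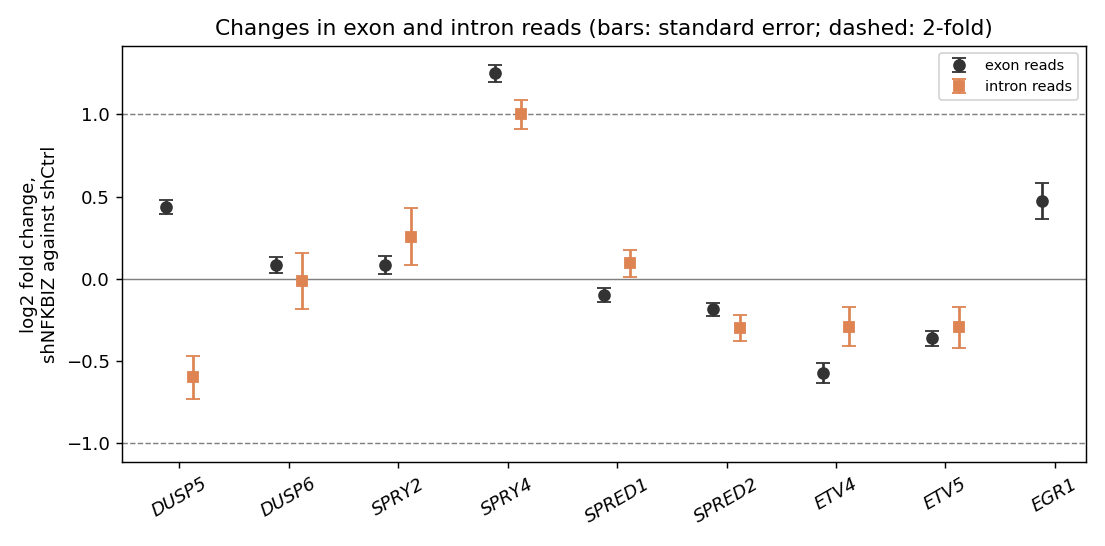
Log2 fold change of exon reads (circles) and intron reads (squares), shNFKBIZ against shCtrl, with the standard error as bars and 2-fold changes as dashed lines. SPRY4 was high in both read types, and DUSP5 had 0.44 in exon and -0.60 in intron reads. EGR1 had too few intron reads for a value.

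The other genes of the pathway were described from 3 lists of 53 genes by textbook role. Of 14 relatives of the members, 8 could be tested, and DUSP2, DUSP9, SPRY1, EGR2, EGR3 and EGR4 were too low. Of the 8, 2 had an adjusted P of at most 0.05 and were higher and 4 were lower, where 65.3% of all genes tested had such a P, and their median log2 fold change was -0.50 beside 0.00 for all genes tested. With no filter on low counts 13 relatives were tested, 3 were higher and 4 lower, and the median was -0.14. Those past the threshold, 2 of 8 where 8.96% of all genes tested were, were DUSP1, a stress-induced MAPK phosphatase, from 88.5 ± 2.63 to 45.2 ± 1.48 TPM (SD, n = 3, log2 fold change -1.05, SE 0.0567), and DUSP8, a phosphatase that favours JNK and p38, from 4.30 ± 0.571 to 2.00 ± 0.103 TPM (-1.19, SE 0.143). DUSP1 fell short of 2-fold with library size alone (-0.96) and with junction reads (-0.92). The higher genes, named here for completeness, were DUSP10 (0.88) and DUSP7 (0.29), and the other lower genes were SPRED3 (-0.87) and DUSP16 (-0.87). ETV1, the third PEA3 factor, had -0.13 in exon reads (adjusted P 0.0672, edgeR). Its intron reads were lower (-0.64, SE 0.201, adjusted P 0.011, edgeR). SPRY3 had 0.23 in exon reads (adjusted P 0.146, edgeR) and 1.09 in intron reads (SE 0.200, adjusted P 3.27e-05, edgeR). The read types differed by 0.52 for ETV1 (adjusted P 0.0418, edgeR) and by -0.855 for SPRY3 (adjusted P 0.00545, edgeR). In intron reads 2 of the 8 relatives were past the threshold, against 6.6% of all genes tested.

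Of 12 other ERK-responsive genes, 5 were higher and 5 lower by adjusted P (limit 0.05, passed by 32.5% and 32.8% of all genes tested), with a median log2 fold change of 0.02. Of the 12, 1 was past the threshold and higher and 2 were past it and lower, against 8.96% of all genes tested in either direction. CCND1, which encodes cyclin D1, rose from 481.6 ± 24.4 to 1139 ± 10.4 TPM (SD, n = 3), a log2 rise of 1.16 (SE 0.0353) with an adjusted P of 2.24e-17 in edgeR. FOSL1, an AP-1 subunit that ERK stabilises and the highest of this list, went from 771.7 ± 12.3 to 1355 ± 39.3 TPM (0.73, SE 0.0326). Against these, LIF, a cytokine of the IL-6 family, fell from 32.5 ± 3.27 to 5.74 ± 0.467 TPM (-2.58, SE 0.0879) and IER3, an immediate early gene that NF-κB also induces, from 628.9 ± 6.75 to 183 ± 9.48 TPM (-1.86, SE 0.0385). The remaining genes called higher were EPHA4, IER2 and EPHA2, those called lower VGF, PHLDA1 and MYC, and FOS and HBEGF were not called in exon reads. HBEGF had -0.10 in exon reads, but its intron reads rose by 0.86 (SE 0.202, adjusted P 0.000803, edgeR). The difference between its read types was -0.95 (SE 0.210, adjusted P 0.000167, edgeR). Intron reads of FOSL1 were not called (0.08, SE 0.0552, adjusted P 0.274, edgeR). Its exon change exceeded its intron change by 0.665 (SE 0.0594, adjusted P 4.25e-17, edgeR). Intron reads of CCND1 rose by 0.85 (SE 0.0774), and its exon change exceeded this by 0.33 (SE 0.0797, adjusted P 0.000739, edgeR). FOS was at 0.712 ± 0.184 TPM in shCtrl and 0.966 ± 0.0700 TPM in shNFKBIZ cells.

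Of 27 genes of the cascade itself, from adaptors to the transcription factors that ERK acts on, 18 were lower and 5 higher by adjusted P (limit 0.05, passed by 32.8% and 32.5% of all genes tested), with a median log2 fold change of -0.25. With library size alone these counts were 17 and 7 and the median was -0.16, while the median of all genes tested moved to 0.09. MAP2K2, which encodes MEK2, was the only one of the 27 past the threshold, which 8.96% of all genes tested were. Exon reads numbered 3221, 3398 and 2787 in the control and 941, 1056 and 988 in the knockdown libraries, and the gene fell from 65.7 ± 3.06 to 21.9 ± 1.54 TPM (SD, n = 3, log2 fold change -1.67, SE 0.0513, adjusted P 3.41e-16, edgeR). Its intron reads fell less, with a log2 fold change of -0.49 (SE 0.102), and the difference between the read types was -1.17 (adjusted P 4.93e-16, edgeR). MAP2K1, the gene of MEK1, was also lower, with -0.69 (SE 0.0451), and so was MAPK3, the gene of ERK1, with -0.44 (SE 0.0614). The list also held genes of RAS GTPase-activating proteins, negative regulators of RAS. Of these, NF1 (-0.388, SE 0.036) and RASA2 (-0.375, SE 0.0551) were lower, and RASA1 (0.016, SE 0.0374) was not called.

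The genes of the cascade that were higher were PEBP1, SHC1, SOS2, BRAF and LAMTOR3. PEBP1, an inhibitor of RAF and the most abundant of the list, rose from 636.2, 655.6 and 684.0 TPM to 1173, 1181 and 1161 TPM (log2 fold change 0.75, SE 0.0326). BRAF, which encodes the RAF kinase most often mutated in melanoma, had 0.38 in exon reads (SE 0.0510) and -0.35 in intron reads (SE 0.0924), both called. RASA1, ARAF and SRF were among the 4 genes that were not called. MAP2K1, MAPK3, BRAF and the genes in these counts other than MAP2K2 and PEBP1 were named after their values were seen.

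**Figure D4:**
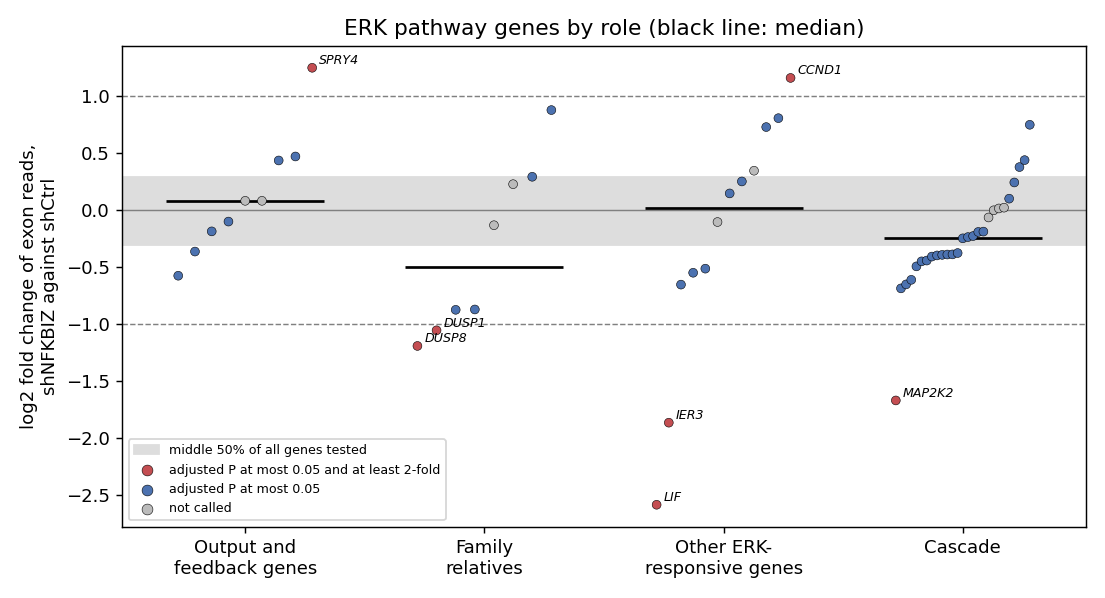
Log2 fold change of exon reads for each tested gene of 4 lists by role, with the median of each list as a line, the middle 50% of all genes tested as a grey band and 2-fold changes as dashed lines. SPRY4 and CCND1 lay above the upper dashed line, and DUSP1, DUSP8, IER3, LIF and MAP2K2 below the lower line.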

How the data were processed

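Reads were aligned by the authors in CLC Genomics Workbench (default settings, hg38, Ensembl genes, up to 10 hits per read, both strands), who deposited whole-number counts of exon, intron and exon junction reads per gene for each library, total and unique. Deposited TPM was recomputed from total exon counts and exon length. Coordinates are those of the tables, and all 10 members had the same ones in GENCODE release 44.

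Total exon counts were filtered with filterByExpr, scaled with TMM factors and tested in edgeR 4.0.16 and R 4.3.3 by robust quasi-likelihood (two-sided, Benjamini-Hochberg adjustment over all genes tested). The SE is the log2 fold change divided by the root of F. The threshold was an adjusted P of at most 0.05 and at least 2-fold. Intron reads had their own fit, and exon against intron changes were tested as an interaction with library blocks. The fits were also run on simulated counts, in which few genes changed and all had the same dispersion. These settings differ from the data, so that run is no support for the results above. The members and lists were chosen with earlier results of these data known. By rule, the named genes of a list were those past the threshold in exon reads (at most 5) and the most abundant. Other genes of the lists given by name, HBEGF, ETV1 and SPRY3 among them, were outside this rule and were named with their values known. Alternative fits used DESeq2 1.42.0, unique reads, total gene reads, scaling by RLE or by library size alone, a stricter filter (10 counts per library) or none, a replicate block, each library left out in turn, a 1.5-fold limit, a TPM difference above 4 and, added after the data were seen, junction reads. Floors cover counting error only. A gene of the cascade list is counted but not reported by name here.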

Additional observations from a re-analysis of the deposited data

How the results depend on the processing

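Of the refitted values of single genes, 405 kept their direction and their side of an adjusted P of 0.05, 18 lost a call, 7 gained a call, and 6 changed sign. Of these, SPRED1 in exon reads was called and turned to 0.052 (adjusted P 0.641, edgeR) with exon junction reads, a setting added after the data were seen. The other 5 were called in neither fit. DUSP6 in intron reads, at -0.014, turned to 0.043 with library size alone, 0.134 without shCtrl replicate 3 and 0.101 without shNFKBIZ replicate 1 (range without 1 library at a time, -0.171 to 0.134). The difference between exon and intron changes turned from 0.109 to -0.003 for DUSP6 without shNFKBIZ replicate 1 (range -0.003 to 0.245) and from -0.055 to 0.099 for ETV5 without shNFKBIZ replicate 3 (range -0.146 to 0.099). The number of the 10 genes past the threshold in exon reads was 1 under all 17 alternatives, a 1.5-fold limit and a TPM difference above 4 included. The number with an adjusted P of at most 0.05 was 7, and it was 6 to 8 in the alternatives other than junction reads. With junction reads it fell to 4 (DUSP5, SPRY4, ETV4 and ETV5), where EGR1 had too few reads to be tested. The number of all genes past the threshold was 1241, against 700 with junction reads and 3098 with a 1.5-fold limit. Without 1 library at a time it was 1315 to 1361.

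Of the relatives, 1 was past the threshold with library size alone, 1 with junction reads and 3 with no filter (1 of them higher), against 2, both lower. In intron reads the number of members past the threshold, 1, was 0 with RLE factors, with at least 10 counts in every library and with unique intron reads, and 0 to 1 without 1 library at a time, since SPRY4 lies on the limit. The number of members whose exon and intron changes differed was 1 to 3 without 1 library at a time, against 2. It was 1 without shCtrl replicate 2 or 3 or shNFKBIZ replicate 1 or 3, where SPRY4 lost its call, and 3 without shNFKBIZ replicate 2, where ETV4 gained one. Where no cause is named, the cause was not tested.

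Libraries with the same replicate number had deviations from the group means that correlated weakly (0.0207, 0.0561 and 0.0288). Such correlations over all genes cannot show that no libraries were paired. A replicate block lowered the SE of ETV4 in exon reads from 0.0592 to 0.0467, but not that of EGR1 (0.1092 and 0.1096). With a replicate block, SPRY4 kept a log2 fold change of 1.25 and 1244 genes were past the threshold. In intron reads, ETV4 lost its call (-0.29, adjusted P 0.0565, edgeR) and ETV5 gained it (-0.30, adjusted P 0.0439, edgeR). DUSP4 in both read types and EGR1 in intron reads had too few reads to pass the filter, and the cause was not tested. The ratio of mean TPM moved by more than the replicate spread for 5 of 9 genes when CPM with TMM factors were used.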
